A study of Mus musculus with 3 samples.

Results

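The transcription factors described here were *Tcf7*, *Lef1*, *Id3*, *Myb*, *Bcl6* and *Eomes*, 6 of the 33696 genes counted, chosen by gene symbol because they are the factors most often used to describe stem-like and memory CD8+ T cells. They were measured in tumor-infiltrating pmel T cells from 3 single-cell RNA-seq libraries, 1 per treatment: IL-2/21-Trikine, sIL-2 alone, and a combination labelled sIL-2 + IL-21. These libraries are called sIL-2, Trikine and the combination below, and values follow the order sIL-2, Trikine, combination. sIL-2 (super IL-2) is an engineered IL-2, and IL-2/21-Trikine joins it to a binder of the IL-21 receptor that does not signal on its own. C57BL/6J mice, aged 5 to 6 weeks when purchased, carried subcutaneous B16F10 melanoma and were irradiated with 6 Gy before adoptive cell transfer (ACT) on day 5. The transferred cells were Thy1.1+ CD8+ T cells of pmel-1 mice, whose transgenic T cell receptor recognises the melanoma antigen gp100, and every group received them. They had been activated with gp100 peptide and preconditioned with 10 nM of sIL-2, of IL-2/21-Trikine, or of sIL-2 together with IL-21. Mice then received 4 albumin-fused cytokine doses of 2.5 μg, the low dose regimen. Per the methods, mice with cells preconditioned in sIL-2 + IL-21 were given sIL-2 alone *in vivo*, so in that group IL-21 acted before transfer. On day 18 tumors were taken, and their live cells positive for Thy1.1 and CD8 were sorted. The number of mice pooled for a library is not given in the sources used here. As the transferred cells come from mice with the same transgenic receptor, they model a response to a single tumor antigen in irradiated hosts. Whether each cell used only that receptor was not checked here.

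TCF-1, encoded by *Tcf7*, and LEF-1 are DNA-binding partners of β-catenin and keep T cells able to renew themselves and to give rise to effector cells. ID3 blocks E proteins and marks long-lived memory precursors, MYB supports the survival and self-renewal of stem-like cells, and BCL6 is a repressor that opposes BLIMP-1 (*Prdm1*). EOMES is a T-box factor found in memory cells as well as in exhausted and killer cells, so it is the member least tied to stemness. IL-2 signals mainly through STAT5 and IL-21 mainly through STAT3, and STAT factors are known to act on the *Bcl6* gene.

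Cells with 2000 to 120000 UMIs and at most 20% mitochondrial UMIs were kept, where a UMI marks a captured RNA molecule. This left 7494 cells with sIL-2, 11524 with Trikine and 9434 with the combination, or 28452 of the 31026 deposited. The lower limit took out 13.3% of cells within the study's own limits in the Trikine library and 3.43% to 3.72% in the others. Kept cells held 129886211 to 167689133 UMIs per library, and the median per cell was 13358.5, 11600.5 and 14556, in library order. The T cell label held, as 99.7% to 99.8% of cells had more than 2 UMIs of 8 T cell markers, and *Cd8a* was seen in 82.6% to 96.8% of the cells positive for a member, lowest in *Tcf7*-positive cells of the combination. More than 2 UMIs of 9 myeloid markers were found in 0.616% to 1.55% of cells, of 4 melanoma markers in 0.0530% to 0.240%, and of *Cd4* and *Foxp3* in 0.104% to 0.414%. B cell markers summed to at most 0.131 CPM. Erythroid markers summed to 68.8 CPM with sIL-2 and at most 0.477 CPM in the others, and with sIL-2 only 1 cell had more than 2 of those UMIs. Between 17 and 30 cell barcodes were shared by any 2 libraries.

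Levels are UMIs summed over the kept cells and scaled to the library's total (CPM), with 95% exact Poisson intervals in brackets. The intervals cover counting error only and carry no spread between mice. With 1 library per treatment no test between treatments was made, and treatment cannot be told apart from the making of a library. A log2 ratio of at least 0.5 in either direction was taken as past the fold. Fewer cells with a gene and less of its RNA per cell both lower a summed level, so shares of positive cells are given beside it, after thinning every cell to 2000 UMIs. Levels were not compared between genes.

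The 3 libraries separated the factors into those that differed and those that hardly did. *Tcf7* and *Bcl6* were lowest with the combination, *Id3* was highest with Trikine, *Eomes* was highest with sIL-2, and *Lef1* and *Myb* stayed within the fold in all comparisons. Between Trikine and sIL-2, 1 of 6 members (*Id3*) was past the fold upward, beside 2.9% of all genes of at least 5 CPM, and 1 (*Eomes*) downward, beside 6.38%. For Trikine over the combination, 3 of the 5 members with at least 5 CPM were higher (*Tcf7*, *Id3* and *Bcl6*), beside 3.51% of all genes, and 0 were lower, beside 4.08%. For sIL-2 over the combination, 3 of 5 were higher (*Tcf7*, *Bcl6* and *Eomes*), beside 10.5%, and 0 were lower, beside 6.24%. The median log2 ratio of all genes was -0.09, 0.00 and 0.08 in these comparisons. They share libraries and are not independent.

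**Figure D1:**
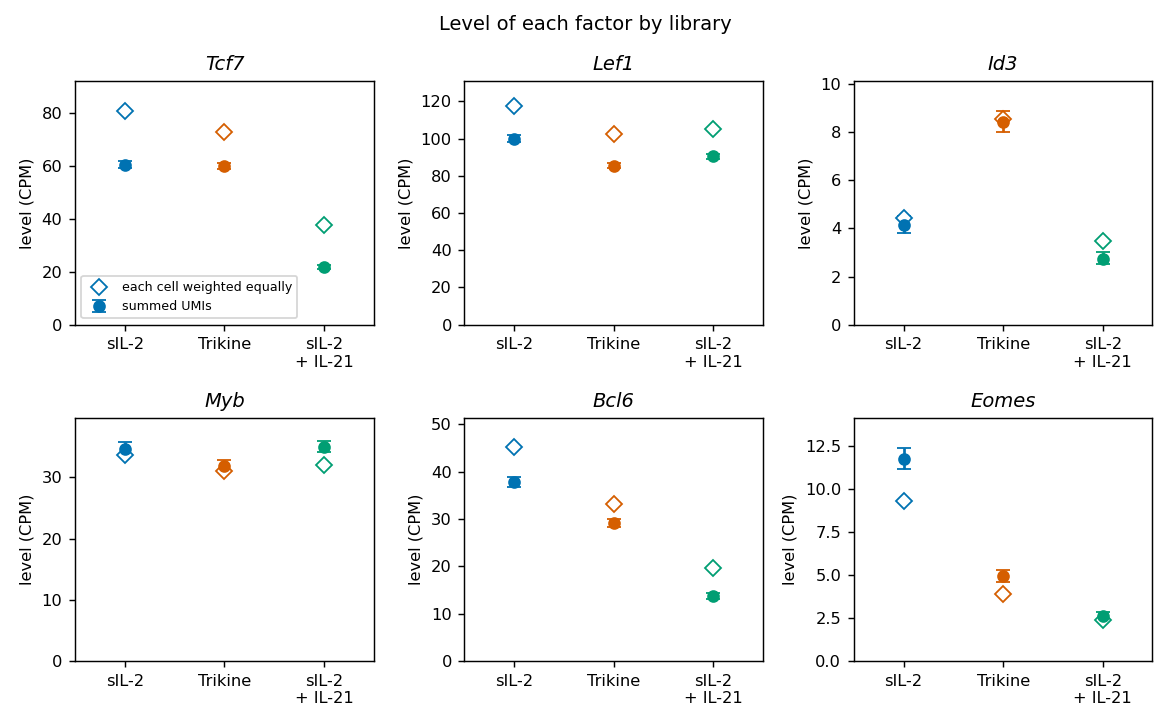
Level of each factor in CPM (vertical axis, from 0) in the 3 libraries. Filled circles are summed UMIs with 95% counting intervals and open diamonds the mean of per-cell CPM; *Tcf7* is at 60.3 and 59.9 CPM in the first libraries and 21.7 CPM in the combination, *Id3* peaks at 8.43 CPM with Trikine, and *Lef1* and *Myb* are nearly level.

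The level of *Tcf7* (ENSMUSG00000000782) with sIL-2 was 60.3 CPM [59.0, 61.7], that with Trikine 59.9 CPM [58.7, 61.1] and that with the combination 21.7 CPM [21.0, 22.4]. The first 2 levels overlapped, with a log2 ratio of -0.01 [-0.05, 0.03], and the combination lay 2.79-fold below sIL-2 and 2.76-fold below Trikine. After thinning, a *Tcf7* UMI was seen in 12.5% [11.8, 13.3] of cells with sIL-2, 11.9% [11.3, 12.5] with Trikine and 6.29% [5.80, 6.79] with the combination. Without thinning these shares were 40.0%, 38.9% and 20.1%. Positive cells also held fewer molecules each, 2.62, 2.20 and 1.92 UMIs in the same order. Thus both the share of positive cells and the unthinned content of a positive cell were lowest with the combination. Positive cells were also shallowest there, with medians of 12496.5, 12258 and 11319 UMIs in library order. The part of depth in their *Tcf7* content was not tested.

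*Lef1* (ENSMUSG00000027985), the relative of *Tcf7* with which it shares much of its role in T cell development, did not follow it. It was at 100.02 CPM [98.3, 102] with sIL-2, 85.4 CPM [84.0, 86.8] with Trikine and 90.4 CPM [89.0, 91.9] with the combination. The intervals were apart, but the log2 ratios were small, -0.23 [-0.26, -0.19] for Trikine over sIL-2, -0.08 [-0.12, -0.05] over the combination and 0.15 [0.11, 0.18] for sIL-2 over the combination. Thinned shares were 18.7% [17.8, 19.6], 16.6% [15.9, 17.3] and 17.8% [17.0, 18.5], the last 2 overlapping with each other, as did the first and the last. Unthinned shares were 62.1%, 54.9% and 62.4%.

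*Id3* (ENSMUSG00000007872) was at 4.16 CPM [3.81, 4.52] with sIL-2, 8.43 CPM [7.99, 8.88] with Trikine and 2.75 CPM [2.5, 3.01] with the combination. It was the member whose level was highest with Trikine, by a log2 ratio of 1.02 [0.88, 1.17] over sIL-2 and 1.62 [1.46, 1.77] over the combination. Between sIL-2 and the combination the log2 ratio was 0.60 [0.41, 0.78], with both levels under 5 CPM. The gene was rare in all libraries, with a thinned share of 0.974% [0.764, 1.22], 1.49% [1.28, 1.73] and 0.594% [0.449, 0.770], of which sIL-2 and the combination overlapped, and an unthinned share of 4.79%, 7.21% and 3.36%. *Id2*, which encodes the relative of ID3 that drives effector cells, was at log2 ratios of -0.39 and -0.35 for Trikine over sIL-2 and over the combination.

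*Myb* (ENSMUSG00000019982) was at 34.7 CPM [33.7, 35.7] with sIL-2, 31.9 CPM [31.0, 32.8] with Trikine and 35.0 CPM [34.1, 35.9] with the combination. sIL-2 and the combination overlapped, and Trikine lay below them by log2 ratios of -0.12 [-0.18, -0.06] and -0.13 [-0.19, -0.08]. Its thinned shares, 5.6% [5.09, 6.15], 5.28% [4.87, 5.70] and 5.54% [5.09, 6.02], overlapped in all libraries. The unthinned shares of 25.6%, 23.3% and 32.9% did not follow the CPM, and the combination, with the highest share, also had the deepest cells.

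*Bcl6* (ENSMUSG00000022508) was at 37.8 CPM [36.7, 38.8] with sIL-2, 29.2 CPM [28.4, 30.0] with Trikine and 13.8 CPM [13.2, 14.3] with the combination, and none of the 3 intervals overlapped. The log2 ratio was -0.37 [-0.43, -0.31] for Trikine over sIL-2, 1.08 [1.01, 1.16] over the combination and 1.46 [1.38, 1.53] for sIL-2 over the combination. Thinned shares had the same order, at 7.74% [7.14, 8.37], 5.87% [5.44, 6.31] and 3.78% [3.41, 4.19], as did unthinned shares of 33.1%, 25.8% and 17.6%. *Prdm1*, which BCL6 represses, was lower with Trikine than with sIL-2 (log2 ratio -1.21) and the combination (-1.09), and its log2 ratio for sIL-2 over the combination was 0.12.

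Promoter windows of all 6 members were read from RefSeq (GRCm38.p6), 11 windows in all, each with 250 bases before and 50 after an annotated start. The letters TTCNNNGAA, the core of STAT sites and the same on both strands, were in 2 of the 11 windows, both of *Bcl6*, and in 8.30% of 32851 windows of the same length. The second *Bcl6* window held 3 matches, and 0.0335% of all windows held 3 or more. The letters CTTTGA, part of the TCF and LEF site, were in 2 of the 11 windows (1 of *Lef1* and the second of *Bcl6*) and in 16.0% of all windows, counting both strands. The stretches before the *Bcl6* starts are shown, with TTCNNNGAA in capitals, because *Bcl6* is the only member whose windows hold those letters. They lie on the minus strand at chr16:23988853-23989102, just before the gene in GENCODE vM21, and at chr16:23981284-23981533, in an intron of it. The match of the first is 118 bases before the start, and those of the second are 168, 122 and 88 bases before it.
Bcl6, first start: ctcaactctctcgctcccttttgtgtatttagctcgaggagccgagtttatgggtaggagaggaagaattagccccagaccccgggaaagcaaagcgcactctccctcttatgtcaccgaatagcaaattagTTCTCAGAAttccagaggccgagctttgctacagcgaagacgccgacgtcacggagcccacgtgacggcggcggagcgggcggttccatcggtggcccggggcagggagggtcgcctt
Bcl6, second start: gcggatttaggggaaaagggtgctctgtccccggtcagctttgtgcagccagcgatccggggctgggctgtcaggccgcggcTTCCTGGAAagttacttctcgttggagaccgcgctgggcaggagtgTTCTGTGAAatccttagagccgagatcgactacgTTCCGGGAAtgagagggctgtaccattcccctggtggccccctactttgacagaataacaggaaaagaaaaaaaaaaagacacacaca
A match of letters is a description of sequence and no sign that a factor was bound there in these cells.

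*Eomes* (ENSMUSG00000032446) was at 11.8 CPM [11.2, 12.4] with sIL-2, 4.96 CPM [4.63, 5.31] with Trikine and 2.64 CPM [2.40, 2.90] with the combination. In the comparisons with sIL-2 its log2 ratio was the farthest from 0 among the members, at -1.25 [-1.37, -1.12] for Trikine over sIL-2 and 2.16 [2.00, 2.31] for sIL-2 over the combination. For Trikine over the combination it was 0.91 [0.74, 1.08], with both levels under 5 CPM. Thinned shares were 1.61% [1.34, 1.93] with sIL-2, 0.746% [0.597, 0.921] with Trikine and 0.583% [0.439, 0.758] with the combination, and the last 2 overlapped. Unthinned shares were 9.63%, 4.06% and 3.01%. *Tbx21*, the T-box relative of *Eomes* that drives effector cells, had log2 ratios of -0.47, -0.31 and 0.15 in the order of the comparisons above.

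**Figure D2:**
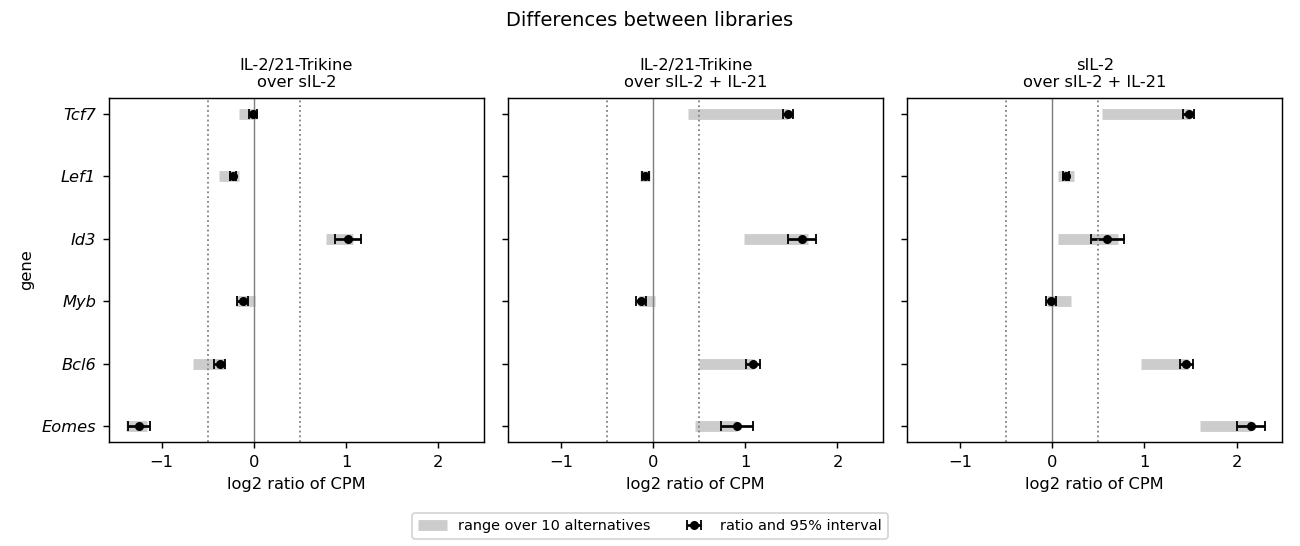
Log2 ratio of CPM (horizontal axis) of each factor in the 3 comparisons of libraries. Black points and bars are the ratio and its 95% counting interval, grey bands the range over 10 other ways of choosing or scaling cells, and dotted lines the fold of 0.5; *Eomes* reaches 2.16 for sIL-2 over the combination, while *Lef1* and *Myb* lie between the dotted lines in each panel.

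Barcodes with at least 10 UMIs of myeloid markers and more of these than of T cell markers give a rough background for free RNA. There were 11, with a median of 7174 UMIs. *Tcf7* and *Eomes* were seen in 0 of 11, a count that leaves room for up to 27.3%, and *Lef1*, *Id3* and *Myb* in 1 of 11 without thinning (9.09% [0.230, 41.3]). *Bcl6*, which myeloid cells also express, was seen in 5 of 11 (45.5% [16.7, 76.6]). These 11 barcodes are too few to set the rare members above or below a background.

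The levels also differed with the depth of a cell. In cells of 2000 to 5000 UMIs, *Tcf7* was alike in the 3 libraries, at 112 CPM [90.1, 138] with sIL-2, 109 CPM [97.6, 121] with Trikine and 106 CPM [92.9, 121] with the combination. At 5000 to 10000 UMIs the levels were 136, 95.9 and 73.7 CPM, and at 10000 to 20000 UMIs 61.4, 58.1 and 25.0 CPM. Above 20000 UMIs, sIL-2 and Trikine had 40.4 CPM [38.9, 42.0] and 43.8 CPM [42.3, 45.4], and the combination had 8.77 CPM [8.19, 9.37]. As a ratio, the gap to the combination was therefore widest in the deepest cells, and it was not seen in the shallowest. *Lef1* was also lower in deeper cells, and about equally in each library, from 177 to 184 CPM in the shallowest band to 67.6 to 81.9 CPM in the deepest. *Id3* was highest with Trikine in all 4 bands, although its interval overlapped both other libraries in the shallowest band and the combination at 5000 to 10000 UMIs. *Bcl6* kept the order sIL-2, Trikine, the combination in all 4 bands, with the interval of Trikine overlapping both others in the shallowest, from 46.5, 29.5 and 17.0 CPM at 10000 to 20000 UMIs to 28.2, 23.4 and 8.35 CPM above. *Eomes* with sIL-2 was at 12.6 CPM [6.05, 23.2] in the shallowest band, then at 4.09, 8.98 and 15.4 CPM, so it was lowest at 5000 to 10000 UMIs. With Trikine it was at 3.90, 2.65, 3.85 and 7.04 CPM over the 4 bands, and with the combination at 0.475 CPM [0.0120, 2.65], 2.40, 2.51 and 2.80 CPM. sIL-2 had the highest *Eomes* in all 4 bands, with its interval overlapping that of Trikine in the 2 shallower bands and that of the combination at 5000 to 10000 UMIs. *Myb* was alike at 10000 to 20000 UMIs, at 30.6, 30.8 and 31.2 CPM, but not in the shallowest band, at 60.5 CPM [44.6, 80.3] with sIL-2, 30.3 CPM [24.4, 37.1] with Trikine and 24.7 CPM [18.4, 32.4] with the combination.

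**Figure D3:**
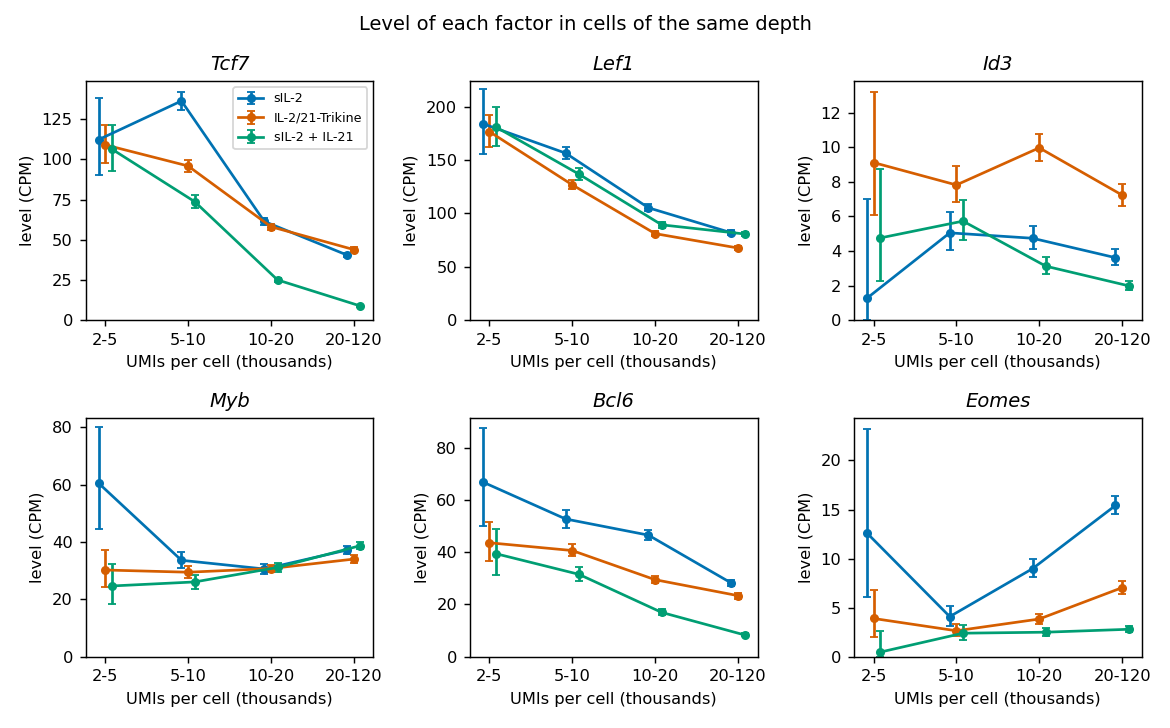
Level in CPM (vertical axis, from 0) of each factor in cells of 2000 to 5000, 5000 to 10000, 10000 to 20000 and 20000 to 120000 UMIs (horizontal axis), by library, with 95% counting intervals. *Tcf7* starts at 106 to 112 CPM in all libraries and ends at 8.77 CPM with the combination against 40.4 and 43.8 CPM in the others.

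Cell states were described by 6 programs of genes, counted after thinning, comparing cells with at least 3 UMIs of a program with cells that had 0. Cells with 1 or 2 UMIs, 15.2% to 41.6% of a library, lie near the limit and were left out. The granzyme program (*Gzmc*, *Gzmd*, *Gzme*, *Gzmf* and *Gzmg*) marks highly armed effector cells, and *Tcf7* was far lower in cells that had it. *Tcf7* was at 20.9 CPM in granzyme-high and 91.7 CPM in granzyme-zero cells with sIL-2, 25.7 and 81.9 CPM with Trikine, and 7.69 and 63.0 CPM with the combination. The log2 ratios were -2.13 [-2.23, -2.04], -1.67 [-1.76, -1.59] and -3.03 [-3.15, -2.92]. *Bcl6* (-1.39, -1.12 and -1.57) and *Id3* (-1.37, -1.12 and -1.47) were lower in granzyme-high cells too. *Lef1* was nearly equal in both states, with log2 ratios of -0.04 [-0.09, 0.02], -0.16 [-0.21, -0.10] and -0.01 [-0.08, 0.05]. *Eomes* was higher in granzyme-high cells with sIL-2 (0.34 [0.19, 0.50]) and Trikine (0.58 [0.36, 0.80]) and not detectably so with the combination (-0.02 [-0.37, 0.35]). Granzyme-high cells were deeper, with medians of 17638 to 22021.5 UMIs against 9372 to 10832 in granzyme-zero cells, but the thinned share of *Tcf7* showed the same gap, at 3.75% against 16.1% with sIL-2, 4.27% against 14.8% with Trikine and 1.96% against 13.1% with the combination.

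Granzyme-high cells made up 25.2% of the sIL-2 library, 23.1% with Trikine and 54.1% with the combination, so the state moved with the comparison. Among granzyme-zero cells alone, the log2 ratio of *Tcf7* for sIL-2 over the combination was 0.54 [0.47, 0.62], against 1.48 over all cells, and for Trikine over the combination it was 0.38 [0.31, 0.45], against 1.47. Among granzyme-high cells it was 1.44 [1.31, 1.57] and 1.74 [1.62, 1.86]. *Bcl6* for sIL-2 over the combination had a log2 ratio of 0.96 [0.85, 1.08] in granzyme-zero and 1.15 [1.02, 1.28] in granzyme-high cells, against 1.46 over all cells. Its ratio for Trikine over the combination was 0.50 [0.39, 0.62] and 0.95 [0.82, 1.08], against 1.08 over all cells. *Id3* was higher with Trikine than with sIL-2 in both states, by 0.92 [0.73, 1.11] and 1.17 [0.83, 1.51], while its ratio for sIL-2 over the combination was 0.06 [-0.21, 0.35] and 0.16 [-0.19, 0.51]. *Eomes* was lower with Trikine than with sIL-2 in both, by log2 ratios of -1.39 [-1.58, -1.20] and -1.15 [-1.34, -0.96].

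The other programs set the factors apart from each other. In cells high for checkpoint receptors (*Pdcd1*, *Havcr2*, *Entpd1*, *Lag3* and *Tigit*), the receptors of exhausted cells, *Tcf7* had log2 ratios of -2.26, -1.33 and -1.99 and *Id3*, on 14 to 16 UMIs in the high cells of a library, of -2.0, -1.64 and -1.42 over cells without them, and *Lef1* and *Myb* lay between -0.22 and 0.00. In cells high for memory receptors (among them *Il7r*, *Ccr7*, *S1pr1* and *Klf2*), *Tcf7* was higher by 1.28, 1.19 and 2.60 and *Lef1* by 0.25, 0.41 and 0.36, and *Eomes* was at -0.83, -0.45 and -0.32. *Id3* had no common direction there, at 0.16, -0.26 and 0.77. Genes of the program named antigen signal (*Nr4a1*, *Nr4a2*, *Nr4a3*, *Egr1*, *Egr2* and *Egr3*) went with *Bcl6*, by log2 ratios of 1.35 [1.22, 1.47], 1.21 [1.1, 1.32] and 1.62 [1.46, 1.78], whereas *Lef1* (-0.53, -0.25 and -0.23) and *Eomes* (-0.71, -0.49 and -0.41) were lower. What induced the genes of that program in these cells was not tested. Cells with interferon-stimulated genes held more *Tcf7* (1.02, 0.79 and 1.41) and *Bcl6* (0.92, 0.43 and 0.98), and *Myb* was at -0.49, -0.78 and -0.26. Those cells were shallower, with medians of 7729 to 9467 UMIs in interferon-high cells, but the thinned share of *Tcf7* was also higher in them, at 18.2%, 18.0% and 12.6% against 10.8%, 10.6% and 5.27%. For *Bcl6* the thinned shares were 11.5%, 7.5% and 3.97% against 6.77%, 5.84% and 3.75%, which left little difference in the combination. *Myb* was instead higher in cycling cells, by 0.59 [0.50, 0.69], 0.55 [0.46, 0.63] and 0.51 [0.42, 0.60], in which *Tcf7*, *Lef1* and *Bcl6* were lower in each library. *Id3* was lower there by CPM (-0.44, -0.32 and -0.53), but with sIL-2 its thinned share went the other way, at 1.12% against 0.924%. *Eomes* was higher in cycling cells with sIL-2 (0.58 [0.41, 0.75]) and Trikine (0.38 [0.16, 0.60]). With the combination it was lower by CPM (-0.43 [-0.74, -0.12]), with thinned shares of 0.591% against 0.572%. Cycling-high cells were 11.9%, 22% and 30.5% of cells, and among cells without the program the *Tcf7* log2 ratio for sIL-2 over the combination was 0.97 [0.90, 1.05] and for Trikine over the combination also 0.97 [0.89, 1.04]. Among cycling-high cells these ratios were 1.76 [1.64, 1.89] and 2.03 [1.93, 2.14].

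**Figure D4:**
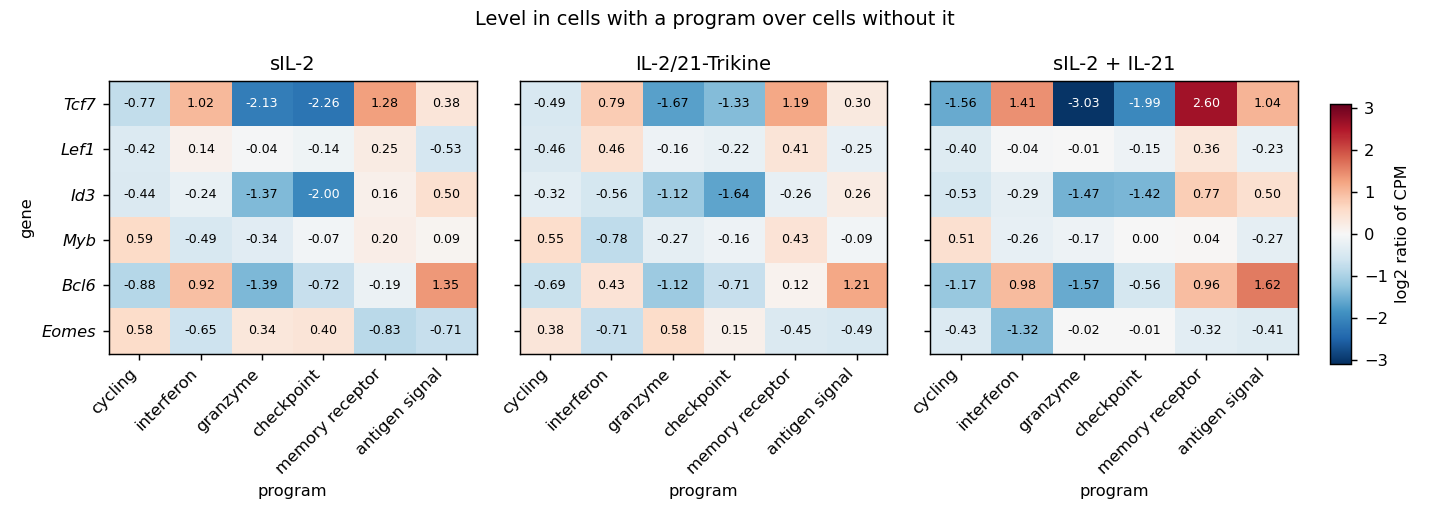
Log2 ratio of the CPM of each factor (rows) in cells with at least 3 UMIs of a program over cells with 0 (columns: programs), for the 3 libraries; red is higher and blue lower. *Tcf7* spans -3.03 to 2.60 with the combination, *Bcl6* is red under antigen signal and *Myb* under cycling in all panels, and *Lef1* stays between -0.53 and 0.46.

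Whether factors were seen in the same cells was described by the number of cells with UMIs of both genes over the number expected if detection were independent among cells of equal depth. Of 15 pairs, 1 had a ratio of at least 1.2 in each library, *Tcf7* with *Id3*. Cells with both numbered 219, 433 and 124, which is 1.46 [1.28, 1.67], 1.24 [1.13, 1.36] and 1.88 [1.57, 2.24] times the expected number. Of *Id3*-positive cells, 61.0%, 52.1% and 39.1% held a *Tcf7* UMI, against 40.0%, 38.9% and 20.1% of all cells. *Tcf7* with *Bcl6* followed, at 1.16 [1.1, 1.23], 1.14 [1.08, 1.2] and 1.38 [1.25, 1.51], then *Id3* with *Bcl6*, at 1.29 [1.1, 1.5], 1.12 [0.997, 1.26] and 1.31 [1.04, 1.63]. *Myb* with *Eomes* was at 1.19 [1.07, 1.32], 1.12 [0.966, 1.29] and 1.21 [1.03, 1.42]. In unthinned counts *Tcf7* and *Lef1* were close to independence at 1.02 [0.978, 1.07], 1.07 [1.03, 1.12] and 1.03 [0.975, 1.09]. *Id3* and *Eomes* were seen together in fewer cells than expected with sIL-2 (36 cells, 0.683 [0.478, 0.945]) and the combination (4 cells, 0.346 [0.0943, 0.886]) and not detectably so with Trikine (50 cells, 0.962 [0.714, 1.27]). A ratio has less room above 1 for a common gene such as *Lef1* than for a rarer gene such as *Id3*.

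The count of 1 pair did not always mean the same pair. With cells thinned to 2000 UMIs and no depth bins it was *Tcf7* and *Lef1*, at 1.24 [1.08, 1.42], 1.39 [1.25, 1.56] and 1.38 [1.16, 1.62], with all intervals above 1. At 5000 UMIs it was *Myb* and *Eomes* (1.47 to 1.56), and *Tcf7* with *Lef1* was at 1.16 to 1.27. Without cells that held *Mki67* or *Top2a*, 0 pairs reached 1.2 in each library. At 2000 UMIs *Tcf7* and *Id3* were seen together in 13, 27 and 4 cells, with ratios of 1.42 [0.758, 2.44], 1.32 [0.869, 1.92] and 1.14 [0.310, 2.91], and all of these intervals include 1. Their ratios were 1.096 to 1.98 at 5000 UMIs and 1.11 to 1.58 without *Mki67* or *Top2a*. In unthinned counts, 12.7% of cells with sIL-2, 17.7% with Trikine and 17.9% with the combination showed none of the 6 members. All 6 were seen in 9 cells with sIL-2, 11 with Trikine and 0 of 9434 with the combination, which allows up to 0.0318%.

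**Figure D5:**
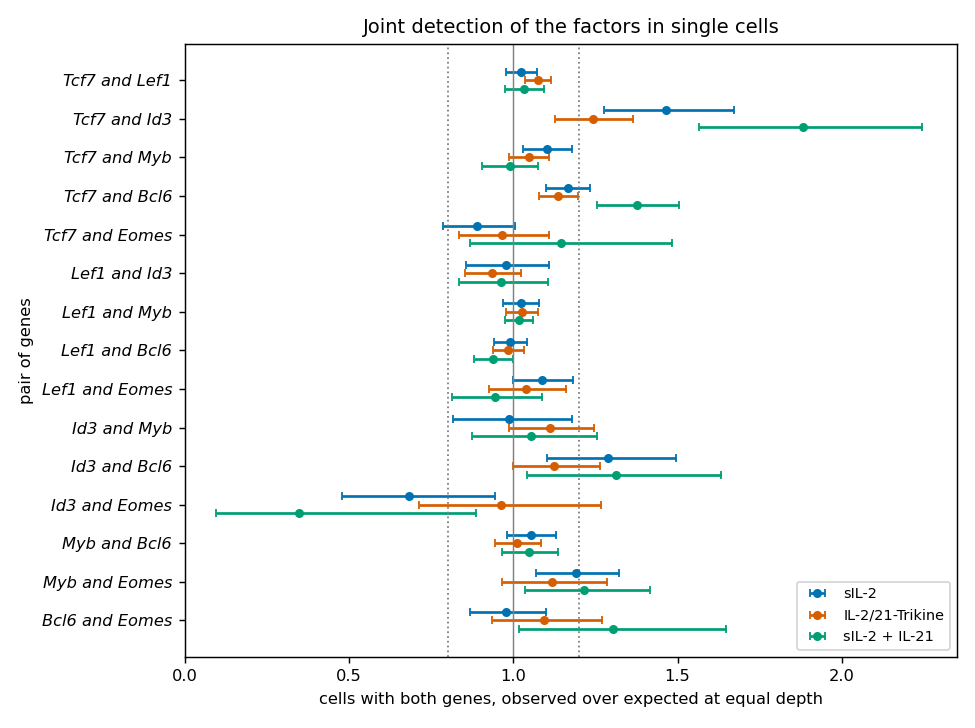
Cells with UMIs of both genes over the number expected at equal depth (horizontal axis) for the 15 pairs of factors, by library, with 95% Poisson intervals of the observed count; the solid line is 1 and dotted lines are 0.8 and 1.2. *Tcf7* and *Id3* lie above 1.2 in all libraries, from 1.24 to 1.88.

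The same ratio was taken for each member with 11433 other genes seen in at least 1% of cells of each library. A ratio of at least 1.2 in each library was reached by 1.01% of them with *Tcf7*, 0% with *Lef1*, 1.62% with *Id3*, 0.00875% with *Myb*, 0.455% with *Bcl6* and 0.813% with *Eomes*. At most 0.8 in each library was met by 0.604%, 0.00875%, 1.12%, 0.0175%, 0.105% and 0.254%, in the same order. Of 89 genes from the lists, programs and markers, 8 were high with *Tcf7*, among them the memory genes *Slamf6* (1.41 to 1.89) and *S1pr1* (1.30 to 1.42), the β-catenin target *Axin2* (1.25 to 1.5), the factor *Maf* (1.23 to 1.43), and the interferon-stimulated *Ifit1*, *Ifit3* and *Rsad2*. The 4 low with *Tcf7* were *Gzmd*, *Gzme*, *Gzmf* and *Havcr2*, at 0.546 to 0.774 over the libraries. With *Id3*, *Egr2* and *Slamf6* were among the high genes and *Entpd1*, *Gzmd* and *Gzme* were low. *Bcl6* had *Egr2* (1.32 to 1.5) and *Egr3* (1.23 to 1.35), and 0 of the 89 passed either limit with *Lef1* or *Myb*.

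*Eomes* had *Klrb1c* as its only high gene of the 89, at 1.64 to 1.84, with *Axin2* and *S1pr1* low. *Klrb1c* encodes NK1.1, a receptor of NK cells that some effector T cells also carry. It was seen in 13.4%, 10.9% and 15.8% of *Eomes*-positive cells and in 4.36%, 4.02% and 8.69% of the others. *Cd3e* was seen in 98.9% to 99.6% of *Eomes*-positive cells. *Ncr1*, a defining NK cell gene, was rare but also more frequent in *Eomes*-positive cells, at 0.970%, 0.427% and 1.76% (7, 2 and 5 cells). In the others it was at 0.0886%, 0.0452% and 0.109%. *Klrb1c* and *Ncr1* summed to 5.54, 4.31 and 8.60 CPM over all cells, so they were not highest in the library with the most *Eomes*, and their part in the *Eomes* difference was not tested. *Eomes*-positive cells were deeper, with medians of 20032.5 to 24439.5 UMIs against 11367 to 14338.5.

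The genes most alike each member were ranked by the mean correlation of detection over the 3 libraries, at equal depth, among 9030 or 9031 genes seen in at least 5% of cells. The points are cells, which share a library, so the values are a description. For *Tcf7* they were *Aff3* (mean 0.29), *Gm26740*, *Sh3bp5*, *Atp10d* and *Ccr7*. For *Lef1* they were *Ccr2* (0.14), *Ctla2b*, *Txnip*, *Abcb1a* and *Ctla2a*, of which *Ccr2* encodes a chemokine receptor. *Id3* had *Tcf7* itself in the first place (0.079), then *Marcksl1*, *Crtam*, *Hspa1b* and *Tnfsf14*. *Bcl6* shared *Crtam* (0.13) and *Tnfsf14* with *Id3*, followed by *Hivep3*, *Gfod1* and *Plcxd2*. *Myb* had *Clspn* (0.12), *Ncapg2*, *Brca1*, *Cdc6* and *Kif11*, genes of DNA replication and cell division. *Eomes* had *Setbp1* (0.098), *Samd3*, *Txk*, *Fcer1g* and *Trps1*, and for *Setbp1* the libraries differed, at 0.20, 0.071 and 0.023. All but the first for *Tcf7* are weak, as counts per cell are sparse.

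Partner genes were followed in 5 lists. Of 13 memory receptors and factors with at least 5 CPM, 9 were past the fold upward with Trikine over the combination and 0 downward, with a list median of 0.56 beside 0.00 for all genes, of which 3.51% were higher and 4.08% lower. *Slamf6*, a surface marker of stem-like cells, was higher by 1.1 and *Bach2*, a repressor of effector genes, by 0.72. Over sIL-2, 3 were higher (among them *Ccr7* by 0.66 and *Slamf6* by 0.59) and 1 lower (*S1pr1*, -0.79), with a median of 0.01 beside -0.09 for all genes, of which 2.9% were higher and 6.38% lower. For sIL-2 over the combination, 7 were higher, *S1pr1* (1.18) and *Bach2* (0.99) among them, and 1 was lower, with a median of 0.51 beside 0.08 for all genes, of which 10.5% were higher and 6.24% lower. Of 12 effector factors, 3 were lower with Trikine than with sIL-2 (*Maf* -1.34, *Prdm1* -1.21 and *Nfatc1* -0.60) and 0 higher, with a median of -0.38 beside -0.09 for all genes. Over the combination, *Prdm1* (-1.09), *Runx3* (-0.64) and *Maf* (-0.57) were lower and *Tox*, a factor of exhausted and progenitor cells, was higher at 1.81, with a list median of -0.02 beside 0.00. For sIL-2 over the combination, 5 of the 12 were higher and 0 lower, with *Tox* at 1.35 and *Nfatc1* at 0.94, and the list median was 0.37 beside 0.08, with 10.5% of all genes higher.

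Genes that encode direct partners of the factors were followed in short lists. Of all genes, 2.9% were past the fold upward and 6.38% downward for Trikine over sIL-2. The shares were 3.51% and 4.08% for Trikine over the combination, and 10.5% and 6.24% for sIL-2 over the combination. Lists this short cannot set their counts apart from these shares. Of 10 β-catenin and TCF partners with at least 5 CPM, 0 were past the fold for Trikine over sIL-2, 1 over the combination (*Tle4*, a corepressor of TCF-1, at 0.55) and 2 for sIL-2 over the combination (*Tle4* at 0.68 and *Tle3* at 0.54). *Ctnnb1*, which encodes β-catenin, stayed within the fold at -0.16, 0.06 and 0.23. Of 4 E protein and Id genes, *Tcf4* was lower for Trikine and sIL-2 over the combination, at -0.92 and -0.79, and *Tcf12* was at 0.51 in the last comparison. The BCL6 corepressor genes *Ncor1*, *Bcor* and *Hdac3* were within the fold in all comparisons.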

How the data were processed

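T cells sorted from tumors were profiled by 3′ single-cell RNA-seq in 3 libraries, grouped by the treatment label. The deposited values are counts of UMIs, a matrix of genes by cells per library, which the authors did not normalize, made with Cell Ranger 9.0.0 per the file headers. Per the methods, intronic reads were counted on a GRCm39 reference, while the labels name mm10, so no position is taken from the counts. The gene IDs and symbols are those of the files. The deposited files hold called cells only, and the study's limits (500 to 120000 UMIs, at most 20% mitochondrial) were not yet applied.

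Here cells of at least 2000 UMIs were kept, UMIs were summed per library as CPM, and ratios were given exact conditional binomial 95% intervals. Shares used cells thinned to 2000 UMIs (seed 1) with exact binomial intervals. Limits for a count of 0 are 3 counts of the total. UMIs limit, but do not remove, amplification error, and all intervals cover counting error only. Joint detection was compared with its expectation in 50 bins of cells by UMI total. No doublet caller was run, and leaving out the 5% of cells with the most UMIs was an alternative. Depth per library limits rare genes, as given with each interval. Genes named are the members, the lists, the programs, the markers and, for each member, the 5 genes most alike in detection, without T cell receptor and immunoglobulin segments. The members, lists and thresholds were chosen with earlier results of these data known. The intervals and the joint detection were tested on simulated data, and the thinning on cells of the sIL-2 library. Alternatives covered limits on cells, scaling, weight of cells, thinning and cycling cells. Python 3.11.15, numpy 2.4.6, scipy 1.17.1, pandas 2.3.3 and matplotlib 3.10.9 were used. Protein sequences and cell clusters were not used here. Values of some genes of the lists and programs are not reported here.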

Additional observations from a re-analysis of the deposited data

How the results depend on the processing

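The 18 log2 ratios of members were recomputed under 10 alternatives, of which cells with 0 UMIs of the granzyme program and cells of 10000 to 20000 UMIs were chosen after seeing the data. None of the ratios past the fold changed sign, 14 of the 18 kept their sign in all 10, and the 4 that did not were *Tcf7* and *Myb* for Trikine over sIL-2 (-0.16 to 0.03 and -0.19 to 0.01) and *Myb* for Trikine and sIL-2 over the combination (-0.15 to 0.02 and -0.05 to 0.20). The number of members past the fold stayed at 2 or 3 for Trikine over sIL-2, and at 3 or 4 in both other comparisons, counting members under 5 CPM. The lowest *Tcf7* ratios over the combination, 0.38 for Trikine and 0.54 for sIL-2, came from granzyme-zero cells. *Eomes* for Trikine over the combination ranged from 0.45 to 0.91 and *Id3* for sIL-2 over the combination from 0.06 to 0.71, so these were not past the fold in each alternative. *Bcl6* for Trikine over sIL-2 was past it in 1 of 10, at -0.66 in cells of 10000 to 20000 UMIs. Pairs of members with a ratio of at least 1.2 in each library numbered 0 without cells holding *Mki67* or *Top2a*, which left 3420 to 5170 cells per library, and the cause was not tested. No paired analysis was possible because each treatment has 1 library. Depth limits *Id3* and *Eomes* most, with 443 to 1529 UMIs per library.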
